A study of Equus caballus with 6 samples.

Results

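The Krüppel-like factors (KLFs) of the horse blastocyst were described here in its inner cell mass (ICM) and its trophectoderm (TE). They were taken as the rows of the deposited expression table whose gene symbol is KLF followed by digits alone, which gave 12 of 12270 rows. The members are KLF3, KLF4, KLF5, KLF6, KLF7, KLF8, KLF9, KLF10, KLF11, KLF12, KLF13 and KLF17. The RefSeq gene table of the horse assembly TB-T2T lists 18 such symbols. The other 6 (KLF1, KLF2, KLF14, KLF15, KLF16 and KLF18) have no row and were not analysed here.

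The study sequenced RNA of horse (Equus caballus) blastocysts that formed in superovulated mares and were collected on day 8. The ICM group has 3 libraries, labelled 15, 22 and 25, of the cells inside the blastocyst after the outer cells had been lysed by immunosurgery. The TE group has 3 libraries, labelled 16, 23 and 24, of outer epithelium isolated mechanically. Blastocysts had been treated with Pronase, a protease mix, RNA came from individual blastocysts, and its cDNA was amplified. The ages of the mares are not in the labels. Each tissue came with its own isolation method, and the effects of the tissue and of the method cannot be told apart. In bulk tissue, fewer cells that express a gene and less RNA per cell cannot be told apart either, and the ICM as isolated holds both epiblast and hypoblast, the endoderm layer. Nothing in the labels says whether libraries share a mare, or a blastocyst, so p-values reflect how much these libraries vary and no more.

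KLFs are transcription factors that bind GC-rich and CACCC-box DNA through 3 zinc fingers at the carboxyl end, and they differ in the part of the protein that recruits partners. KLF4, KLF5, KLF6 and KLF7 mostly activate transcription. KLF3, KLF8 and KLF12 recruit the corepressor CtBP, and KLF9, KLF10, KLF11 and KLF13 recruit the corepressor SIN3A. In mouse embryonic stem cells KLF2, KLF4 and KLF5 help to maintain pluripotency, and KLF4 is induced there by LIF through STAT3. In the mouse embryo KLF5 is needed in both the ICM and the trophectoderm, and in human embryos KLF17 is a marker of naive epiblast.

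The libraries held between 6526212 and 10686659 reads in the genes of the table. ICM 25 stood apart from the other ICM libraries. Of 10 epiblast marker genes 6 have a row, and their summed level was 148, 142 and 51.8 RPKM (reads divided by gene length in kilobases and by depth) in ICM 15, 22 and 25, against 43.3 to 70.7 RPKM in TE. Of these markers SOX2 had no read in any TE library. POU5F1 made up most of the sum in every library. In ICM 25 POU5F1 (36.0 RPKM) and DPPA4 (11.3 RPKM) lay within the range of TE. NANOG (1.75 RPKM), GDF3 (1.44), PRDM14 (0.94) and SOX2 (0.44) lay above every TE library there. The 9 of 11 hypoblast markers with a row summed to 79.7, 84.6 and 28.6 RPKM in ICM 15, 22 and 25, against 23.6 to 34.9 RPKM in TE. The 10 of 12 trophectoderm markers with a row summed to 52.8 to 90.6 RPKM in ICM, against 168 to 209 RPKM in TE. In the test described below, 2 of 4 epiblast and 2 of 9 hypoblast markers tested were called with ICM higher. Of 9 trophectoderm markers tested, 4 were called with TE higher. Over all genes tested the share called was 0.933% in each direction. NANOG, GDF3 and CITED1 reached 1 RPKM in ICM libraries alone, so they entered the test only through the tissue where they are high. With no filter on low values 0.489% of all rows were called higher in ICM, and 0 of 6 epiblast and 2 of 9 hypoblast markers were. In that fit 4 of 10 trophectoderm markers were called higher in TE, and the share of all rows in that direction is not given here. Markers of other cells were low: 4 of 8 leukocyte markers have a row and summed to 1.99 to 5.08 RPKM in ICM, with the highest value in ICM 25, and to 1.41 to 1.79 RPKM in TE. The 1 of 6 erythroid markers with a row, ALAS2, stood at 0.74 to 2.68 RPKM in ICM and 0.54 to 1.4 RPKM in TE. The 2 of 6 endometrial epithelium markers with a row summed to 1.52 to 4.05 RPKM in ICM and 2.18 to 5.17 RPKM in TE. No endothelial or cumulus marker of the lists has a row.

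The family spanned a wide range of levels, and the same few genes led it in both tissues. KLF3, KLF5, KLF6 and KLF10 together accounted for 83.4% ± 3.39 of the summed RPKM of the 12 members in ICM, and for 87.6% ± 0.95 in TE (means with SD over 3 libraries, as for all such values here). KLF3 and KLF5 headed ICM at 52.0 ± 12.7 and 51.7 ± 12.5 RPKM, and their libraries overlapped. In TE the order was KLF5 at 50.7 ± 4.02, KLF3 at 28.1 ± 1.01, KLF10 at 13.8 ± 0.96 and KLF6 at 9.03 ± 2.53 RPKM, and the libraries of neighbours in that order did not overlap. In ICM, KLF6 at 18.2 ± 5.73 and KLF10 at 15.3 ± 3.87 RPKM came next and overlapped each other, but lay apart from KLF5 above and KLF4 below them. From KLF4 down to KLF8, every neighbouring pair in the ICM order overlapped. KLF12 took the last place in TE, at 0.31 ± 0.12 RPKM. The summed level of the 12 members was 161, 192 and 142 RPKM in ICM 15, 22 and 25, against 108, 115 and 125 RPKM in TE 16, 23 and 24.

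**Figure D1:**
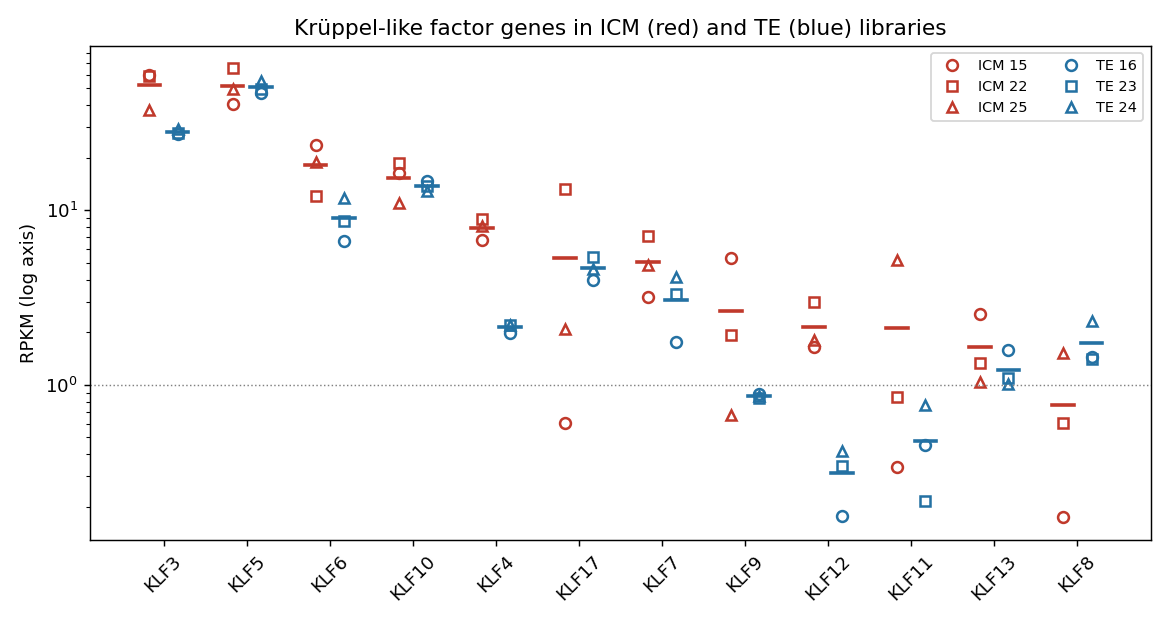
RPKM of the 12 KLF genes on a log axis, with 1 point per library, ICM in red left of TE in blue, and bars at the means of 3 libraries. KLF3, KLF4, KLF6 and KLF12 show every ICM point above every TE point, and the dotted line marks 1 RPKM.

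The comparison asks which members differ in level between the tissues. KLF4 and KLF12 rose in ICM, though the KLF12 call did not hold with no filter on low values. KLF3 and KLF6 also had every ICM library above every TE library, without passing the test. Of the 12 members, 11 had a higher mean RPKM in ICM, the exception being the row labelled KLF8. The share of all rows with a higher mean in ICM was not computed. KLF5 and KLF10 differed little (ratios of 1.02 and 1.11), and the ICM means of KLF9, KLF11 and KLF17 were each led by 1 library. On the log2 scale of the test KLF17 was lower in ICM (-0.45). The median log2 difference over the 12 members, with no filter on low values, was 0.66, where that over all 12270 rows was -0.09. Over the 10 members that passed the filter given below, the median was 0.39, where that over all 9436 genes tested was -0.15. Each log2 difference is ICM minus TE of log2(RPKM + 1), and it is smaller than the true log2 ratio where levels are low. The limma test covered the 9436 genes that reached 1 RPKM in 3 or more libraries, with p-values adjusted over all of them. At an adjusted p of 0.05 it called 2 members with ICM higher and 0 with TE higher. Among all genes tested 1.87% were called, 0.933% in each direction. Of the 12 members 10 passed the filter. KLF9 and KLF11 did not, and KLF12 passed through its ICM values alone, so the count of 2 is not one over all members.

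**Figure D2:**
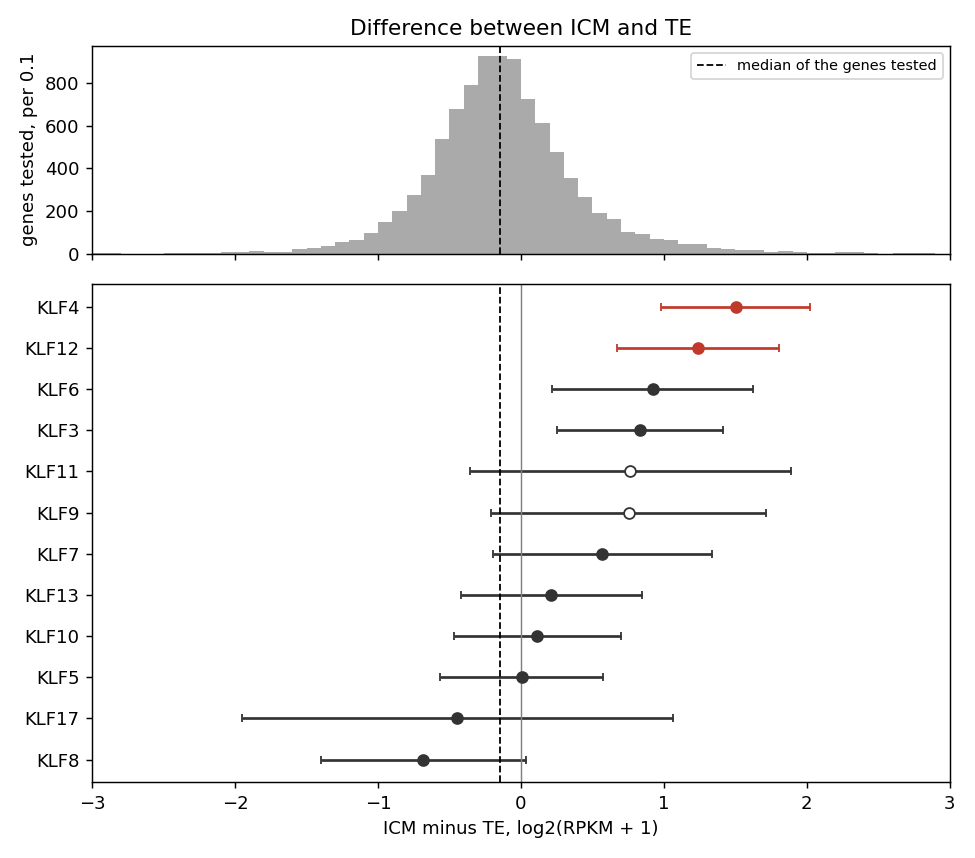
Above, the number of genes tested by their difference between ICM and TE (ICM minus TE on the log2(RPKM + 1) scale), with a dashed line at the median of -0.15. Below, the difference of each KLF member with its 95% interval, with the called members KLF4 and KLF12 in red and open circles for KLF9 and KLF11, which did not pass the filter and come from the fit with no filter.

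KLF4 had the smallest adjusted p of the family. Its libraries ICM 15, 22 and 25 held 6.80, 8.88 and 8.09 RPKM, against 1.98, 2.22 and 2.21 RPKM in TE 16, 23 and 24. All 3 ICM libraries were high, including ICM 25, and the tissues lay far apart. The means were 7.92 ± 1.05 RPKM in ICM and 2.14 ± 0.13 RPKM in TE, a ratio of 3.71. The log2 difference was 1.5 (SE 0.23, limma adjusted p = 0.023). The reads behind these values were 306, 486 and 358 in ICM and 95, 78 and 103 in TE. KLF4 lies on chromosome 25 (13160610 to 13164230 in the table's coordinates; no genome build is named for them), and its reads were counted over 1835 bases. Beside it, the epiblast factor NANOG held 14.1, 12.4 and 1.75 RPKM in ICM 15, 22 and 25, and 0.15, 0.16 and 0.04 RPKM in TE 16, 23 and 24. The low NANOG of ICM 25 had no counterpart in KLF4.

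KLF5 showed no difference that the data could resolve. It held 40.5, 65.2 and 49.5 RPKM in ICM 15, 22 and 25, against 47.1, 49.96 and 55.1 RPKM in TE 16, 23 and 24. The ICM libraries surrounded those of TE. The log2 difference was 0.01 with a 95% interval of -0.56 to 0.57 (limma adjusted p = 0.995), so differences within that interval were not excluded.

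KLF6, a widely expressed factor first cloned from placenta, held 23.6, 12.2 and 18.9 RPKM in ICM 15, 22 and 25, against 6.71, 8.66 and 11.7 RPKM in TE 16, 23 and 24. The lowest ICM library lay just above the highest TE library. The log2 difference was 0.92 (SE 0.31, limma adjusted p = 0.18). KLF7, known for its role in the growth of axons in mice, overlapped between the tissues at 5.07 ± 1.98 RPKM in ICM and 3.08 ± 1.22 RPKM in TE (limma adjusted p = 0.44 for a log2 difference of 0.57, SE 0.34).

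Among the members that recruit CtBP, KLF12 passed the test with ICM higher, by a small margin. It held 1.64, 2.97 and 1.81 RPKM in ICM 15, 22 and 25, against 0.18, 0.34 and 0.42 RPKM in TE 16, 23 and 24. The tissues were well separated, but the ICM values rest on 61, 134 and 66 reads and those of TE on 7, 10 and 16. The means were 2.14 ± 0.72 RPKM in ICM and 0.31 ± 0.12 RPKM in TE, a ratio of 6.84, which was the largest in the family. The log2 difference was 1.24 (SE 0.25, limma adjusted p = 0.047). KLF12 reached 1 RPKM in its ICM libraries alone, so it entered the test only through the tissue where it is high, and with no filter the call was lost (adjusted p = 0.053). KLF12 and KLF5 share chromosome 17, where 506980 bases separate the end of KLF5 (46522263 to 46535113) from the start of KLF12 (47042093 to 47323236). With no filter neither gene of this pair was called. KLF12 is also known as AP-2rep, a repressor of the gene for the transcription factor TFAP2A in human cells. TFAP2A itself stood at 5.31 ± 1.27 RPKM in ICM and 33.7 ± 6.96 RPKM in TE (log2 difference -2.46, limma adjusted p = 0.013), and a link between the genes was not tested.

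KLF3 was among the most abundant members and shared this direction. It held 59.9, 58.7 and 37.4 RPKM in ICM 15, 22 and 25, against 27.3, 27.7 and 29.2 RPKM in TE 16, 23 and 24. TE was tightly grouped, and ICM 25 lay between TE and the other ICM libraries. The log2 difference was 0.84 (SE 0.26), and the limma adjusted p of 0.15 missed the threshold. The result rested on ICM 25 and on the scaling: without ICM 25 the log2 difference was 1.05 with an adjusted p of 0.0083. It also passed after median of ratios rescaling (adjusted p = 0.028), after quantile normalization (0.031), with library weights (0.014) and with voom on the reads recovered from the table (0.024). The deposited scaling put the median difference of all genes tested at -0.15, and median of ratios rescaling moved it to 0.01, so KLF3 stood above that median under both.

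The row labelled KLF8 was the only member with a lower mean RPKM in ICM, but its identity is doubtful. The table places it on chromosome 5 (37621464 to 37625887), between TAGLN2 and CCDC19, while the RefSeq gene table has KLF8 on chromosome X. Between TAGLN2 and CFAP45, the current symbol of CCDC19, that table lists a long noncoding RNA on chromosome 5 and no KLF gene. The other 11 members lie on the chromosome that RefSeq gives. The row held 0.17, 0.60 and 1.51 RPKM in ICM 15, 22 and 25, against 1.45, 1.41 and 2.32 RPKM in TE 16, 23 and 24, with ICM 25 within the range of TE. Its log2 difference was -0.68 (SE 0.32, limma adjusted p = 0.32). Its values are therefore given as those of the row and not of KLF8.

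The 4 members that recruit SIN3A gave no call. KLF10, induced by TGF-beta, held 16.3, 18.6 and 11.1 RPKM in ICM 15, 22 and 25, against 14.8, 13.8 and 12.8 RPKM in TE 16, 23 and 24. The ICM libraries fell on both sides of those of TE, with a log2 difference of 0.11 and a 95% interval of -0.47 to 0.70 (limma adjusted p = 0.87). KLF13, known for activating the chemokine gene CCL5 in T cells, was low throughout, averaging 1.64 ± 0.81 RPKM in ICM and 1.22 ± 0.31 RPKM in TE (adjusted p = 0.76).

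KLF9 and KLF11 stayed below the filter, and in each a single ICM library was high. KLF9, which is induced by glucocorticoids, held 5.32, 1.94 and 0.67 RPKM in ICM 15, 22 and 25, on 113, 50 and 14 reads. Its TE libraries 16, 23 and 24 lay close together at 0.88, 0.84 and 0.87 RPKM. KLF11, a TGF-beta inducible gene like KLF10, held 0.34, 0.85 and 5.18 RPKM in ICM 15, 22 and 25, on 14, 43 and 211 reads. In TE 16, 23 and 24 KLF11 held 0.45, 0.22 and 0.77 RPKM. The high library was ICM 15 for KLF9 and ICM 25 for KLF11, so the pair did not vary together. In the fit with no filter their log2 differences were 0.75 (SE 0.43, limma adjusted p = 0.38) for KLF9 and 0.76 (SE 0.50, limma adjusted p = 0.45) for KLF11. Without ICM 25 that fit gave 1.21 (adjusted p = 0.053) for KLF9 and 0.11 (adjusted p = 0.81) for KLF11, so the KLF11 difference rested on ICM 25.

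KLF17 was the most variable member in ICM. ICM 15, 22 and 25 held 0.61, 13.3 and 2.10 RPKM, on 15, 400 and 51 reads. TE 16, 23 and 24 held 3.99, 5.43 and 4.62 RPKM, on 105, 105 and 118 reads. ICM 22 lay above all TE libraries, and ICM 15 and 25 lay below all of them. The ratio of the highest to the lowest ICM library was 21.9, against 1.36 in TE. The mean RPKM was slightly higher in ICM (5.34 ± 6.94 in ICM, 4.68 ± 0.72 in TE), while the log2 difference was -0.45 (SE 0.67, limma adjusted p = 0.79) with a 95% interval of -1.96 to 1.06. Leaving out ICM 15 gave 0.24, leaving out ICM 22 gave -1.34 and leaving out ICM 25 gave -0.24, so its direction rested on ICM 15. KLF17 did not follow the epiblast markers over the ICM libraries: ICM 15, with the lowest KLF17, held 14.1 RPKM of NANOG and 93.1 RPKM of POU5F1, and ICM 22 held 12.4 RPKM of NANOG and 102 RPKM of POU5F1. KLF17 lies on chromosome 2 (14214152 to 14215493), and KLF18, its neighbour in RefSeq, has no row. Whether reads of that gene contribute was not tested.

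**Figure D3:**
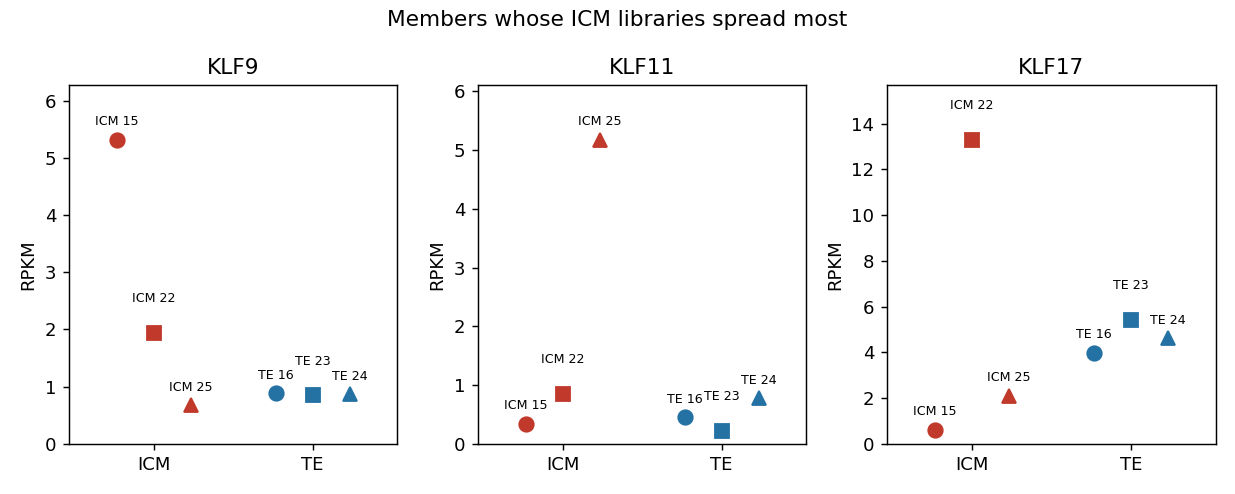
RPKM of KLF9, KLF11 and KLF17, with ICM on the left and TE on the right of each panel and 1 labelled point per library. A different ICM library is highest in each panel: ICM 15 at 5.32 for KLF9, ICM 25 at 5.18 for KLF11 and ICM 22 at 13.3 for KLF17.

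The members varied more in ICM than in TE, as genes did in general. The median SD of log2(RPKM + 1) over the 12 members was 0.44 in ICM and 0.16 in TE, where the medians over all genes tested were 0.44 and 0.19. Without ICM 25 each SD in ICM comes from ICM 15 and 22 alone. The median over all genes tested was then 0.25 in ICM, while that over the 12 members was 0.42. The 12 members include KLF9 and KLF11, which are not among the genes tested. In 4 members (KLF8, KLF9, KLF11 and KLF17) the highest ICM library exceeded the lowest more than 5-fold, and in TE no member did so. Of the 12 members, 4 were highest in ICM 15, 6 in ICM 22 and 2 in ICM 25.

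The calls depended on single libraries. The KLF4 adjusted p was 0.052 without ICM 15, 0.056 without ICM 22, and 0.16, 0.17 and 0.13 without TE 16, 23 and 24, while its log2 difference stayed between 1.43 and 1.6. The KLF12 adjusted p was 0.083 and 0.088 without ICM 15 and 22, and 0.24, 0.26 and 0.18 without TE 16, 23 and 24. The fits without these libraries called few genes of any kind higher in ICM: 0.106% without ICM 15, 0.318% without ICM 22, 0% without TE 16, and 0.0106% without TE 23 or TE 24. With ICM 25 left out, KLF3, KLF4 and KLF12 passed with ICM higher, 3 members where 5.89% of all genes did so, and 0 members passed with TE higher, where 5.62% of all genes did. The same 3 were called with median of ratios rescaling (1.36% of all genes higher in ICM), quantile normalization (1.37%), library weights (3.87%) and voom (1.32%). A pseudocount of 0.5 kept KLF4 and KLF12 (0.954%). KLF4 alone passed with a pseudocount of 0.1 (0.668%), with no filter (0.489%) and with a filter of 5 RPKM, which leaves out KLF12 (0.534%). With no filter and without ICM 25, where 6.11% of all rows passed with ICM higher and 4.48% with TE higher, KLF3, KLF4 and KLF12 were called higher in ICM and the row labelled KLF8 higher in TE (adjusted p = 0.046).

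**Figure D4:**
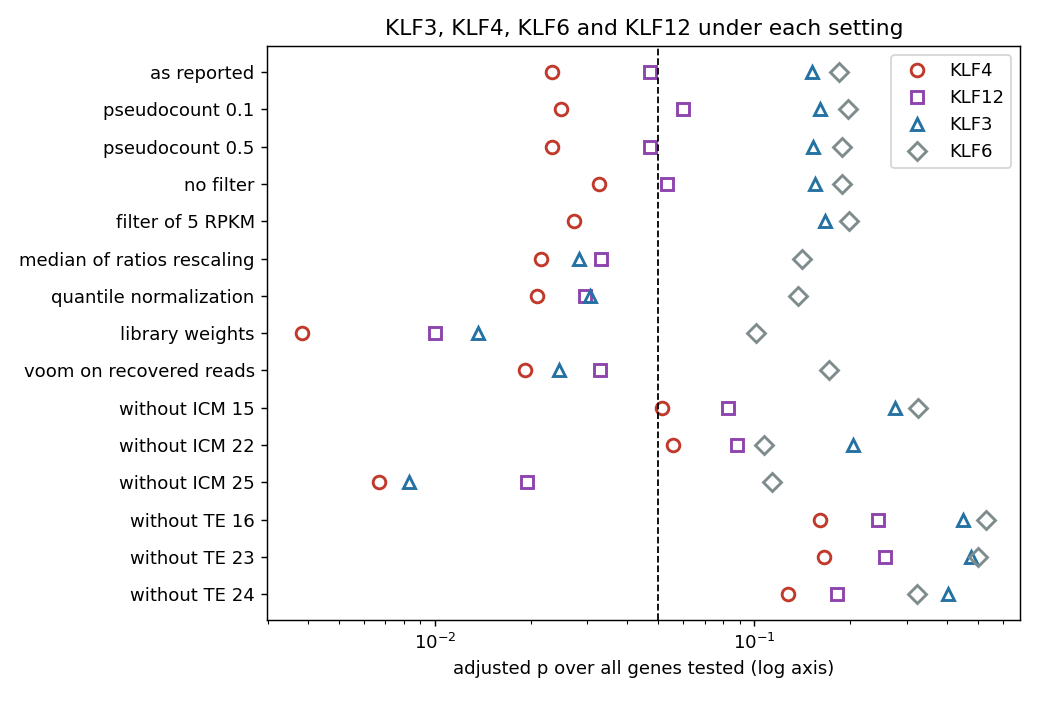
Adjusted p over all genes tested (log axis) for KLF4, KLF12, KLF3 and KLF6 under each setting, with a dashed line at 0.05; KLF12 has no value with a filter of 5 RPKM. KLF4 lies left of the line in all settings except those without ICM 15, ICM 22 or any 1 of the TE libraries, and KLF6 lies right of it in all settings drawn.

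The separation of libraries gives a view without a model. ICM lay above TE in every library for 4 of the 12 members (KLF3, KLF4, KLF6 and KLF12), all of them among the genes tested, and TE lay above ICM for 0. Over all genes tested the shares were 6.81% with ICM above and 17.8% with TE above. In the authors' deposited table, which the authors made with DESeq, 6 of the 12 members reached an adjusted p of 0.05 with ICM higher, against 10.7% of all rows, and 0 with TE higher, against 5.96%. These were KLF3 (the authors' deposited table gives an adjusted p of 0.0018), KLF4 (6.4e-10), KLF6 (0.0034), KLF9 (0.019), KLF11 (0.00019) and KLF12 (2.9e-08). For KLF9 and KLF11 the call in the authors' deposited table stands beside values led by 1 ICM library each.

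The SP factors, which share the DNA-binding domain of the KLFs, gave no call among 5 members with a row, all of them tested. Their median log2 difference was 0.02, where that over all genes tested was -0.15. The smallest p belonged to SP4, at 4.05 ± 1.62 RPKM in ICM and 2.28 ± 0.57 RPKM in TE (limma adjusted p = 0.39), and to SP3, at 14.4 ± 1.51 RPKM in ICM and 13.6 ± 1.19 RPKM in TE (adjusted p = 0.91). SP8 had the same order of ICM libraries as KLF9: ICM 15, 22 and 25 held 6.07, 1.91 and 0.38 RPKM of SP8, against 1.83, 2.62 and 2.0 RPKM in TE 16, 23 and 24 (SP8 was singled out after its values were seen). Without ICM 25, where 5.89% of all genes were called higher in ICM, SP4 was among them (log2 difference 0.87, limma adjusted p = 0.047).

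No gene for a protein that acts with KLFs or on their turnover passed the test. Of 13 cofactor genes (CtBP, SIN3, histone deacetylases, NCOR and acetyltransferases) 11 were tested, 0 were called in either direction, and the median log2 difference was -0.05. The corepressor subunit SAP30 had the smallest p, at 4.28 ± 1.16 RPKM in ICM and 7.36 ± 2.35 RPKM in TE (limma adjusted p = 0.31), followed by the deacetylase HDAC2, at 31.8 ± 9.87 RPKM in ICM and 22.0 ± 3.36 RPKM in TE (adjusted p = 0.47). HDAC2 was called higher in ICM without ICM 25 (adjusted p = 0.041), as were 5.89% of all genes. CTBP2, the more abundant CtBP gene, stood at 18.2 ± 5.94 RPKM in ICM and 19.3 ± 1.39 RPKM in TE. Of 12 genes that act on the turnover of KLF proteins, 11 have a row and were tested, with 0 calls and a median of -0.03. The ubiquitin ligase gene FBXO32 held 1.02, 2.60 and 8.86 RPKM in ICM 15, 22 and 25, against 0.450, 0.505 and 0.437 RPKM in TE 16, 23 and 24 (limma adjusted p = 0.17). Like KLF11, FBXO32 was highest in ICM 25. The ligase gene BTRC was at 7.58 ± 2.64 RPKM in ICM and 12.6 ± 1.24 RPKM in TE (adjusted p = 0.26). The ligase gene SIAH1 was called higher in ICM in the same fit without ICM 25 (adjusted p = 0.038), but not with all libraries (limma adjusted p = 0.56). SIAH1 held 8.15, 6.62 and 2.63 RPKM in ICM 15, 22 and 25, against 3.33, 4.24 and 3.28 RPKM in TE 16, 23 and 24.

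Of 16 genes of pathways that induce KLFs, 15 have a row and 11 were tested, with 0 calls and a median log2 difference of 0.16. The shared receptor subunit IL6ST, at 5.96 ± 3.10 RPKM in ICM and 1.64 ± 0.17 RPKM in TE (limma adjusted p = 0.12), and the kinase JAK2, at 8.75 ± 4.66 RPKM in ICM and 3.57 ± 0.50 RPKM in TE (adjusted p = 0.23), had the smallest p of those tested. Without ICM 25, again against 5.89% of all genes, both were called higher in ICM (limma adjusted p = 0.0052 for IL6ST and 0.012 for JAK2). LIFR, the receptor of LIF, was called in that fit too (0.038), but not with all libraries (limma adjusted p = 0.68). LIFR held 6.52, 3.49 and 0.63 RPKM in ICM 15, 22 and 25, against 1.80, 1.88 and 1.52 RPKM in TE 16, 23 and 24. The library left out thus lay below every TE library for LIFR. STAT3, through which LIF induces Klf4 in mouse cells, held 5.62, 4.85 and 3.34 RPKM in ICM 15, 22 and 25, against 2.74, 2.46 and 3.30 RPKM in TE 16, 23 and 24. The STAT3 libraries did not overlap, ICM lying above TE as in 6.81% of all genes tested, and the gene was not called (log2 difference 0.53, SE 0.26, limma adjusted p = 0.34).

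The naive pluripotency network in which KLFs act in mouse and human had a single call. Of 15 genes 11 have a row and 9 were tested, with a median log2 difference of -0.43 over those 9. That median leaves out SOX2 and PRDM14, which did not pass the filter and were higher in ICM. PRDM14 averaged 6.37 RPKM in ICM and 0.14 RPKM in TE. In the fit with no filter the log2 differences were 1.70 for SOX2 and 2.35 for PRDM14 (limma adjusted p = 0.10 and 0.092). Of the 11 rows, 6 had a higher mean RPKM in ICM. NANOG passed with ICM higher (limma adjusted p = 0.046, log2 difference 2.88, SE 0.57), and 0 genes passed with TE higher, where 0.933% of all genes did so in each direction. NANOG reached 1 RPKM only in ICM, so it too entered the test through the tissue where it is high, and with no filter 0 genes of the network were called. Among the 9 tested, the next smallest p belonged to genes with higher means in TE that did not pass. ESRRB, an orphan nuclear receptor, was at 1.55 ± 0.80 RPKM in ICM and 3.79 ± 0.37 RPKM in TE (adjusted p = 0.15), and its libraries had TE above ICM, as in 17.8% of all genes tested. SUSD2, a surface protein of naive human cells, held 9.45, 13.3 and 23.9 RPKM in ICM 15, 22 and 25, against 27.6, 29.4 and 22.9 RPKM in TE 16, 23 and 24 (adjusted p = 0.25), and its tissues overlapped through ICM 25. With ICM 25 left out, 5.89% of all genes passed with ICM higher and 5.62% with TE higher. In that fit 4 genes of the network passed with ICM higher (NANOG, POU5F1, LIN28A and SALL4). With TE higher 2 passed, TFCP2L1 (limma adjusted p = 0.037) and SUSD2 (0.013). With all libraries POU5F1, LIN28A and SALL4 were not called (limma adjusted p = 0.44, 0.41 and 0.92). SALL4 held 66.7, 62.0 and 18.4 RPKM in ICM 15, 22 and 25, against 38.5, 37.1 and 40.8 RPKM in TE 16, 23 and 24. Of 17 genes reported as KLF targets in other cells, 6 have a row and 5 were tested, with 0 calls and a median of -0.35 over those 5. That median leaves out CDKN1A, which did not pass the filter. CDKN1A held 0.16, 2.22 and 7.68 RPKM in ICM 15, 22 and 25, against 0.15, 0.20 and 0.46 RPKM in TE 16, 23 and 24. With no filter its log2 difference was 1.33 (limma adjusted p = 0.28). Of the 6 rows, 3 had a higher mean RPKM in ICM. The cadherin gene CDH1 held 75.3, 85.6 and 99.3 RPKM in ICM 15, 22 and 25, against 56.9, 56.2 and 47.8 RPKM in TE 16, 23 and 24 (limma adjusted p = 0.19). SMAD7, the inhibitor of TGF-beta signalling that KLF10 represses in human cells, was at 1.65 ± 0.80 RPKM in ICM and 0.57 ± 0.45 RPKM in TE (adjusted p = 0.27).

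Genes with the pattern most like that of a member were sought among 8445 named genes tested, by the root mean square distance between profiles of log2(RPKM + 1) over the 6 libraries after each gene's mean was subtracted. For KLF4 these were the collagen chaperone gene SERPINH1 (distance 0.14), the aryl hydrocarbon receptor target TIPARP (0.15) and the kinesin gene KIF5C (0.17). TIPARP held 25.9, 29.5 and 35.0 RPKM in ICM 15, 22 and 25, against 8.86, 8.01 and 9.80 RPKM in TE 16, 23 and 24. For KLF12 they were the filamin gene FLNA (0.11), the surface glycoprotein gene THY1 (0.12) and BICC1 (0.15), and for KLF5 PAF1 (0.04), WASF2 (0.06) and USP53 (0.06). FLNA held 7.19 to 13.1 RPKM in ICM and 3.44 to 4.15 RPKM in TE, a smaller ratio than that of KLF12. THY1 held 1.35 to 2.85 RPKM in ICM and 0 to 0.43 RPKM in TE, and also entered the test through ICM alone. Such distances depend on how much a member itself varies and are not comparable between members. The root mean square of the member's own profile was 0.76 for KLF4, 0.65 for KLF12, 0.20 for KLF5 and 0.97 for KLF17. The genes nearest to KLF17, the most variable of these, were C3orf62, RAB35 and PQBP1, at 0.34, 0.38 and 0.41. All 3 shared its low value in ICM 15 and its high value in ICM 22, as in RAB35 with 2.78, 14.8 and 5.71 RPKM in ICM 15, 22 and 25, against 9.66, 10.7 and 11.9 RPKM in TE 16, 23 and 24.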

How the data were processed

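The authors deposited 1 table of 12270 genes, in which the 6 library columns are RPKM, per the file headers. The authors named FastQC and DESeq in the submitters' processing notes, and the aligner, counter, annotation and build are each not given in the sources used here. Beside RPKM, the deposited table gives a mean signal over all libraries (baseMean, in normalized counts), the fold of ICM over TE as a ratio, its log2 value, a p-value and an adjusted p-value, all by the authors. In every row the second highest library reaches 0.4 RPKM.

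RPKM and baseMean together returned the reads: 100% of values up to 1000 reads were whole within 0.001. Reads of amplified cDNA are not independent molecules, so they show depth only. The 9436 genes reaching 1 RPKM in 3 or more libraries were fitted as log2(RPKM + 1) by limma 3.58.1 (R 4.3.3) (trend, two-sided, Benjamini-Hochberg at 0.05), and the scripts were tested on simulated data. Alternatives changed the pseudocount, filter, scaling, weights or model (voom on the recovered reads, with library sizes scaled by a trimmed mean of log ratios computed in the script), or left out 1 library. Named genes are all members, the calls and otherwise the 2 smallest p-values of the SP, cofactor, turnover, inducer, naive network and target lists, and the 3 genes nearest in pattern to KLF4, KLF5, KLF12 and KLF17. TFAP2A, STAT3, CTBP2, SP8, POU5F1, SOX2, PRDM14, DPPA4, CDKN1A and the genes called only without ICM 25 were added after their values were seen. Marker lists are given as sums and counts, with some of their genes named. Members and lists were chosen with earlier results of these data known. Strand was not stated, so overlapping genes cannot be told apart.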

Additional observations from a re-analysis of the deposited data

How the results depend on the processing

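No paired analysis was possible because the ICM and TE libraries share no number in the labels. The count of members called higher in ICM was 2. It was 1 with a pseudocount of 0.1, with no filter and with a filter of 5 RPKM, and ranged from 0 to 3 when 1 library was left out, with 3 without ICM 25. The count higher in TE was 0, and 1 in a fit with no filter and without ICM 25 that was chosen after seeing the data. The log2 difference turned direction for 4 uncalled members when 1 library was left out. KLF5 ranged from -0.17 without ICM 22 to 0.16 without ICM 15, and was -0.045 without TE 16 and -0.0041 without TE 23. KLF10 ranged from -0.032 without ICM 22 to 0.32 without ICM 25, KLF13 from -0.023 without ICM 15 to 0.38 without ICM 25, and KLF17 from -1.34 without ICM 22 to 0.24 without ICM 15. The causes were not tested.

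In the SP, cofactor, turnover, inducer, naive network and target lists, NANOG was the 1 gene called with ICM higher, and 0 had TE higher. These lists exclude the cell type marker lists. Of all genes tested 0.933% were called in each direction. With library weights, where 3.87% of all genes tested were called higher in ICM, the inducers and the naive network each had 2 such calls. The naive network also had 1 call higher in TE there, and the share of all genes in that direction is not given here. With voom (1.32% of all genes tested higher in ICM) the inducers had 1 call higher in ICM and the naive network 0. The naive network also had 0 when the filter was dropped (0.489% of all genes higher in ICM) or set to 5 RPKM (0.534%). When 1 library was left out, calls higher in ICM ranged from 0 to 4 in the naive network, 0 to 3 in the inducers, and 0 to 1 in the SP, cofactor and turnover lists, and those higher in TE from 0 to 2 in the naive network. In each the highest count came without ICM 25, where 5.89% of all genes tested passed with ICM higher and 5.62% with TE higher. With no filter and without ICM 25, 6.11% of all rows passed with ICM higher and 4.48% with TE higher. In that fit 6 of 11 naive network genes passed with ICM higher and 2 with TE higher. Also passing with ICM higher were 3 of 15 inducers, 1 of 13 cofactors and 1 of 11 turnover genes. Low reads limit KLF12 in TE (7 to 16 reads) and KLF11 in TE (7 to 33 reads).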
